A study of Mus with 6 samples.

Results

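The keratins of surface and simple epithelium, 7 genes, were followed through the immediate response of mouse lens epithelial cells (LECs) to lens fiber cell removal. They were chosen by name and Ensembl identifier, with earlier results of these data known, and make up 7 of the 55421 genes counted. They comprise the basal surface keratins Krt5 and Krt14, the corneal keratin Krt12, the stress keratins Krt16 and Krt17, and the simple epithelial keratins Krt8 and Krt18. RNA was sequenced from lens capsules with their attached LECs at 0 h and at 6 h post cataract surgery (PCS), with 3 libraries per time point and a pool of 5 capsules per library. All mice were wild type C57BL/6, aged 2 months according to the labels, with both sexes used and an older age given in the methods of the study, and no group carried a transgene or received a drug. In each mouse the fiber cells were taken out of 1 eye first and out of the other eye 6 h later, so capsules of a 0 h pool and of a 6 h pool may come from the same animals. The labels do not tie pools to animals.

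Keratins build the intermediate filaments of epithelial cells, and each filament needs a type I keratin paired with a type II keratin. KRT5 pairs with KRT14 in the basal layer of stratified surface epithelium, KRT12 is the type I keratin that marks differentiated corneal epithelium, and KRT8 pairs with KRT18 in single-layered epithelium. KRT16 and KRT17 are type I keratins that stressed or wounded surface epithelium is known to switch on, usually with a KRT6 keratin as type II partner. The lens epithelium is a single layer whose best known intermediate filament protein is vimentin, and the corneal epithelium is the tissue through which the eye is opened in such an operation.

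The libraries held 18039974 to 24701039 counts in genes, and 16810 genes passed the filter on low counts. With a differentially expressed gene (DEG) defined by a Benjamini-Hochberg FDR no higher than 0.05, together with more than a 2-fold change, in the quasi-likelihood test of edgeR, 762 genes (4.53%) were upregulated and 138 (0.821%) downregulated at 6 h PCS. Under scaling by library size alone these numbers were 572 and 627, and the median log2 fold change of all genes was -0.32 in place of -0.003. The 8 genes of the lens epithelium with a symbol at hand, among them Pax6, Foxe3 and Prox1, summed to 1828 to 2069 CPM (counts scaled to 1000000 per library, normalized by the TMM method of edgeR) at 0 h PCS and to 1599 to 1856 CPM at 6 h PCS. The 7 keratins summed to 9.36 to 21.6 CPM at 0 h and to 92.6 to 131.6 CPM at 6 h, so they were a small part of the RNA in every library.

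The keratins sit in both keratin gene clusters of the mouse genome (GRCm38.p6, RefSeq annotation). On chromosome 11, the type I cluster, Krt12 spans 99415664 to 99422593, Krt14 spans 100203162 to 100207510, Krt16 spans 100246091 to 100248902 and Krt17 spans 100256215 to 100261029. Krt16 and Krt17 are 7312 bases apart. On chromosome 15, Krt5 spans 101707069 to 101712905, Krt8 spans 101996711 to 102004342, and Krt18, the type I gene that lies among the type II genes, spans 102028216 to 102032026. Krt14, Krt16 and Krt17 are close relatives in sequence, and the counting left out the 2.01% to 2.83% of read pairs without a unique position, a share of whole libraries, so the counts of these relatives may be too low by an amount that was not measured.

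Of the 7 keratins, 5 passed the filter on low counts, and Krt14 and Krt16 did not. Krt17 was the single DEG among them, upregulated, against 4.53% of all tested genes. The 3 libraries of 6 h PCS all lay above the 3 of 0 h PCS for Krt5, Krt12 and Krt17, a separation seen in 15.3% of all tested genes. No keratin tested had its 6 h libraries all below its 0 h libraries, as 15.3% of all tested genes did. Krt5 and Krt17 reached the level of the filter in all 3 libraries only at 6 h PCS, Krt8 only at 0 h PCS, and the count of DEGs among the 7 was therefore not read as a result about the group.

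**Figure D1:**
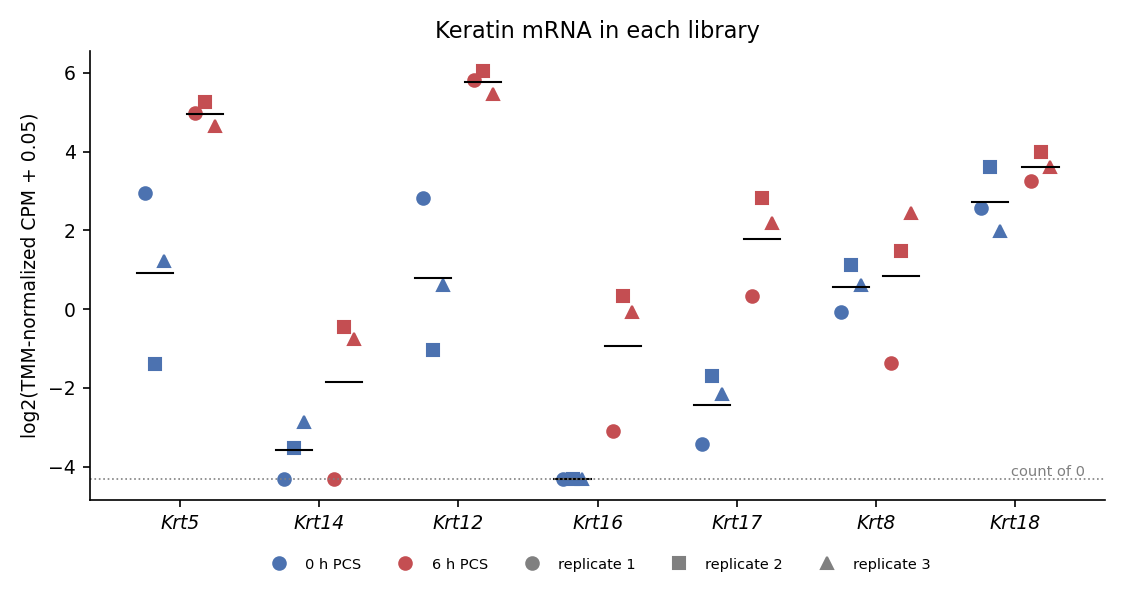
Level of each of the 7 keratins in each library on a log2 scale of TMM-normalized CPM with 0.05 added, with 0 h PCS in blue, 6 h PCS in red, circles, squares and triangles for replicates 1, 2 and 3, and black bars at the mean of the log2 values. The 6 h libraries sit apart from the 0 h libraries for Krt5, Krt12 and Krt17, 6 h replicate 1 holds 1 count of Krt16 against none at 0 h, and the time points overlap for Krt14, Krt8 and Krt18.

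Krt17, which in wounded epidermis is known as an early stress keratin, was upregulated. Its counts were 1, 7 and 4 in 0 h replicates 1, 2 and 3, and 18, 157 and 75 in 6 h replicates 1, 2 and 3. As CPM, these were 0.0430, 0.255 and 0.173 at 0 h PCS, and 1.21, 7.06 and 4.52 at 6 h PCS. The time points did not overlap, and the lowest 6 h library was replicate 1. The mean level went from 0.157 ± 0.107 CPM to 4.26 ± 2.93 CPM (SD, n = 3 each), a log2 fold change of 4.69 (SE 0.82, 95% interval 2.87 to 6.52, FDR = 0.00769, edgeR quasi-likelihood test with Benjamini-Hochberg adjustment). Krt17 was a DEG in each of the 6 fits that left out 1 library, with log2 fold changes from 4.11 to 5.23, and in all 10 other fits, from 4.44 to 4.76. Per length of its exons Krt17 went to 2.56 ± 1.93 FPKM at 6 h PCS, from 0.113 ± 0.0772 FPKM at 0 h PCS (counts per kilobase of exon and per 1000000 counts in genes, SD, n = 3).

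Krt16, the stress keratin next to Krt17 on the chromosome, had no count in the 3 libraries of 0 h PCS. At 6 h PCS it had 1, 27 and 15 counts in replicates 1, 2 and 3, or 0.0671, 1.21 and 0.904 CPM. Replicate 1 was again lowest, as for Krt17, and its single count lay within what a count of 0 allows. Against the 3 counts per library that a count of 0 allows, 0.123 CPM on average, the mean of 0.728 CPM at 6 h PCS was at least 5.94-fold higher, which covers counting error only. This bound was 3.96-fold without 6 h replicate 2. Krt16 failed the filter and had no FDR in the fit of the 16810 genes, while in the fit without the filter it passed as a DEG (FDR = 0.0102, edgeR). Of the 4 fits without 1 library that tested it, the one without 6 h replicate 1 called it (FDR = 0.0421) and those without a 0 h library did not (FDR = 0.123 to 0.168, edgeR). For every 100 counts of Krt17 there were 5.56, 17.2 and 20 counts of Krt16 in 6 h replicates 1, 2 and 3. As shares of the summed Krt16 and Krt17 counts these were 5.26%, 14.7% and 16.7%, and the exact 95% binomial interval of replicate 1, from 0.133% to 26.0%, covered the other two. Per exon length, the mean of Krt16 at 6 h PCS was 0.436 ± 0.371 FPKM (SD, n = 3), below that of Krt17 in each of the 3 libraries.

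Krt12 had the largest normalized counts of the 7 at 6 h PCS, although levels of different genes were not compared by length. Its counts were 163, 12 and 34 in 0 h replicates 1, 2 and 3, and 835, 1463 and 734 in 6 h replicates 1, 2 and 3. As CPM, these were 7.01, 0.437 and 1.47 at 0 h PCS, and 56.0, 65.8 and 44.2 at 6 h PCS. The 0 h libraries differed by 16.0-fold among themselves, with replicate 1 highest, whereas the 6 h libraries were within 1.49-fold, and all 3 were above every 0 h library. The means were 2.97 ± 3.54 CPM and 55.4 ± 10.8 CPM (SD, n = 3), a log2 difference of 4.23 (SE 1.01, 95% interval 1.63 to 6.83), and Krt12 was not a DEG (FDR = 0.0792, edgeR quasi-likelihood test with Benjamini-Hochberg adjustment; unadjusted p = 0.00877). This call turned on the method and on single libraries. Krt12 was a DEG without 0 h replicate 1 (log2 fold change 5.88, FDR = 0.00125, edgeR) and without 0 h replicate 2 (FDR = 0.0475, edgeR). It was also a DEG by DESeq2 (FDR = 0.000486), by the exact test of edgeR (FDR = 0.0020), without robust estimation (FDR = 0.0114) and in the newer form of the quasi-likelihood test (FDR = 0.0381).

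Krt5, the basal type II keratin, behaved much like Krt12 across the libraries. Its counts were 179, 9 and 53 in 0 h replicates 1, 2 and 3, and 465, 853 and 414 in 6 h replicates 1, 2 and 3. As CPM, these were 7.70, 0.328 and 2.29 at 0 h PCS, and 31.2, 38.4 and 24.9 at 6 h PCS. The time points did not overlap, the 0 h libraries spread over 23.5-fold and the 6 h libraries over 1.54-fold. The means were 3.44 ± 3.82 CPM and 31.5 ± 6.71 CPM (SD, n = 3), a log2 difference of 3.21 (SE 1.02, 95% interval 0.59 to 5.83), and Krt5 was not a DEG (FDR = 0.146, edgeR quasi-likelihood test with Benjamini-Hochberg adjustment). It was a DEG without 0 h replicate 1 (log2 fold change 4.61, FDR = 0.0359, edgeR) and without 0 h replicate 2 (FDR = 0.0258, edgeR). DESeq2 (FDR = 0.0257), the exact test of edgeR (FDR = 0.0331) and the fit without robust estimation (FDR = 0.0385) also called it.

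Krt14, the usual type I partner of KRT5 in basal cells, stayed near the limit of detection. It had 0, 1 and 2 counts in 0 h replicates 1, 2 and 3, and 0, 15 and 9 counts in 6 h replicates 1, 2 and 3. The time points overlapped, since 6 h replicate 1 was at 0, where 3 counts allow up to 0.201 CPM. Summed over libraries there were 3 counts at 0 h PCS and 24 at 6 h PCS, a 10.996-fold ratio after scaling (exact 95% interval 3.34 to 57.0, counting error only). The ratio was 22.6 without 0 h replicate 3 and 7.03 without 6 h replicate 2. In the fit without the filter its difference did not pass (log2 3.14, FDR = 0.404, edgeR). For every 100 counts of Krt5 there were 0, 1.76 and 2.17 counts of Krt14 in the 3 libraries of 6 h PCS.

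Corneal epithelium can be carried over when the eye is opened, so Krt12 was used as its marker within each library and the other surface keratins were set against it. For every 100 counts of Krt12 there were 110, 75.0 and 156 counts of Krt5 in 0 h replicates 1, 2 and 3, and 55.7, 58.3 and 56.4 counts in 6 h replicates 1, 2 and 3. Krt5 made up 35.8%, 36.8% and 36.1% of the summed Krt5 and Krt12 counts in the 6 h libraries, with exact 95% binomial intervals that all overlapped (33.2% to 38.4%, 34.9% to 38.8% and 33.3% to 38.9%, counting error only). At 0 h PCS the share was 52.3%, 42.9% and 60.9%, higher in each library than at 6 h PCS. The interval of 0 h replicate 2, which rested on 21 counts in all, ran from 21.8% to 66.0% and so covered the 6 h shares. With 3 libraries against 3, a two-sided exact permutation test cannot go below p = 0.1, and no other test of this shift was run.

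Krt17 did not keep a fixed ratio to Krt12, and the counts of Krt5 per 100 of Krt12 also differed between the time points. For every 100 counts of Krt12 there were 0.613, 58.3 and 11.8 counts of Krt17 in 0 h replicates 1, 2 and 3, and 2.16, 10.7 and 10.2 counts in 6 h replicates 1, 2 and 3. Of the 0 h libraries, replicate 1 had the most Krt12 and the least Krt17, and replicate 2 had the least Krt12 and the most Krt17, with 1 and 7 counts of Krt17. Among the 6 h libraries, Krt17 differed by 5.84-fold and Krt12 by 1.49-fold. Krt17 was 2.11% of the summed Krt17 and Krt12 counts in 6 h replicate 1 (exact 95% interval 1.26% to 3.31%), against 9.69% (8.29% to 11.2%) in replicate 2 and 9.27% (7.36% to 11.5%) in replicate 3. The interval of replicate 1, which held 18 counts of Krt17, lay below those of replicates 2 and 3, which overlapped. These intervals cover counting error only. Whether the Krt17 counts came from LECs or from other cells in the capsule preparation was not tested.

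**Figure D2:**
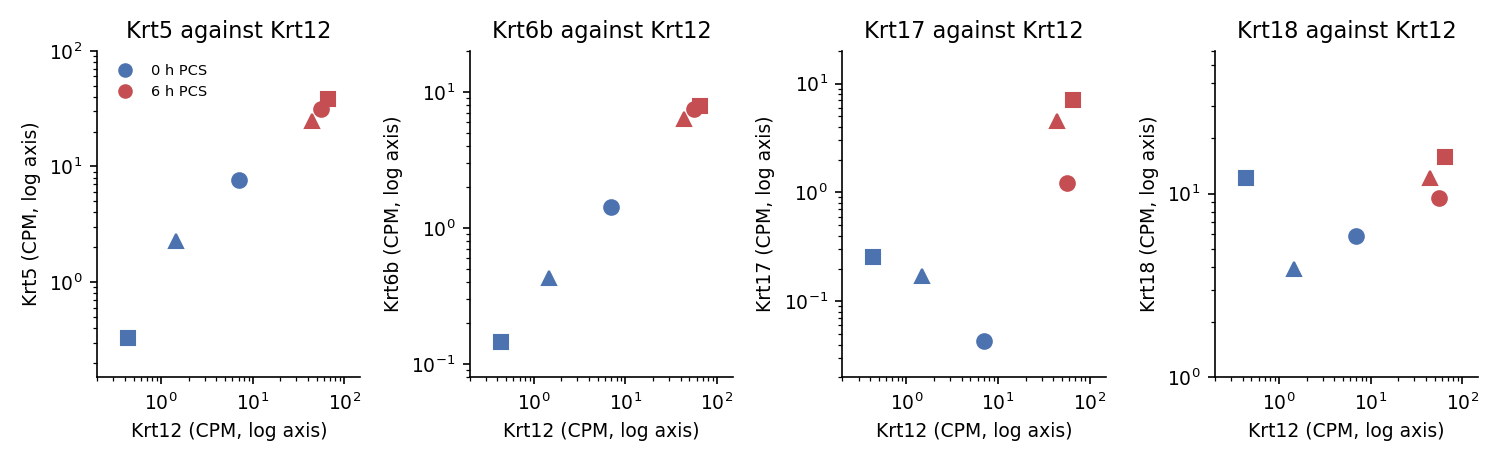
CPM of Krt5, Krt6b, Krt17 and Krt18 against CPM of Krt12 in the 6 libraries on log axes, with 0 h PCS in blue, 6 h PCS in red and marker shape for the replicate. Krt5 and Krt6b climb with Krt12 through all libraries, whereas Krt17 is lowest in the 0 h library with the most Krt12 and spreads over 5.84-fold among 6 h libraries whose Krt12 levels are within 1.49-fold.

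Krt6b, the type II keratin often paired with KRT16 and KRT17 in stressed epithelium, was upregulated. Its levels were 1.42, 0.146 and 0.432 CPM in 0 h replicates 1, 2 and 3, and 7.45, 7.82 and 6.33 CPM in 6 h replicates 1, 2 and 3. The time points did not overlap, and the 0 h libraries had the order of Krt12. Krt6b reached the level of the filter in all 3 libraries only at 6 h PCS. The log2 fold change was 3.44 (SE 0.66, FDR = 0.0121, edgeR quasi-likelihood test with Benjamini-Hochberg adjustment), and it passed in all 6 fits that left out 1 library but not in a test against a 2-fold change (FDR = 0.0628, edgeR). For every 100 counts of Krt12 there were 13.3, 11.9 and 14.3 counts of Krt6b in the 6 h libraries and 20.2, 33.3 and 29.4 in the 0 h libraries. The order of libraries within both time points was the same for Krt5, Krt6b and Krt12, and it was different for Krt17. The order of Krt12 held for 1.87% of all tested genes. Of the 80 other tested genes among the keratins and the gene lists used here, it held for 7.5%, Krt5 and Krt6b included. Per exon length, Krt6b averaged 2.90 ± 0.51 FPKM and Krt17 2.56 ± 1.93 FPKM at 6 h PCS (SD, n = 3), a difference smaller than the spread of Krt17. The near-identical Krt6a was not analysed here, and reads shared between these copies make the Krt6b counts uncertain.

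Krt8 and Krt18, the pair of single-layered epithelium, were not DEGs and overlapped between the time points. Krt18 was at 5.89, 12.2 and 3.88 CPM in 0 h replicates 1, 2 and 3, and at 9.53, 15.8 and 12.1 CPM in 6 h replicates 1, 2 and 3. Replicate 2 was highest at both time points, and 0 h replicate 2 exceeded 2 of the 6 h libraries. The means were 7.32 ± 4.32 CPM and 12.5 ± 3.14 CPM (SD, n = 3), with a log2 difference of 0.77 whose 95% interval ran from -0.13 to 1.66 (FDR = 0.288, edgeR quasi-likelihood test with Benjamini-Hochberg adjustment). Krt8 was at 0.904, 2.11 and 1.47 CPM in 0 h replicates 1, 2 and 3, and at 0.336, 2.74 and 5.36 CPM in 6 h replicates 1, 2 and 3. Its 6 h libraries held both the lowest and the highest value of the 6, a 16.0-fold spread. The means were 1.49 ± 0.61 CPM and 2.81 ± 2.51 CPM (SD, n = 3), with a log2 difference of 0.91 and an interval from -0.84 to 2.66 (FDR = 0.536, edgeR). Without 6 h replicate 3 the difference of Krt8 was 0.07. These intervals leave room for changes above 2-fold in either gene.

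Krt8 did not keep a fixed ratio to its partner Krt18. For every 100 counts of Krt18 there were 15.3, 17.4 and 37.8 counts of Krt8 in 0 h replicates 1, 2 and 3, and 3.52, 17.4 and 44.3 counts in 6 h replicates 1, 2 and 3. As a share of the summed Krt8 and Krt18 counts, Krt8 was 3.40% in 6 h replicate 1 (exact 95% interval 1.11% to 7.76%) and 30.7% in 6 h replicate 3 (25.4% to 36.3%), and these intervals did not overlap. The 6 h libraries had the same order in the summed pigment cell genes Dct, Tyrp1, Pmel and Tyr, at 77.4, 455.7 and 1965 CPM in replicates 1, 2 and 3, but the 0 h libraries did not, at 208.8, 63.8 and 51.4 CPM. The part of pigmented tissue in the Krt8 values was not tested.

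Of 7 other keratins with a symbol at hand, 6 were tested and 1, Krt6b, was upregulated, against 11.6% of all tested genes with a symbol. Krt6b reached the level of the filter in all 3 libraries only at 6 h PCS, Krt222 only at 0 h PCS and Krt90 at neither time point. Nothing was therefore read from this count. Krt80, a type II keratin of stratified epithelium, was at 2.02, 0.911 and 1.29 CPM at 0 h PCS and at 4.63, 4.27 and 3.67 CPM at 6 h PCS. These values did not overlap, with a log2 difference of 1.57 that missed the threshold (FDR = 0.0533, edgeR quasi-likelihood test with Benjamini-Hochberg adjustment). DESeq2 (FDR = 0.00764), the exact test of edgeR (FDR = 0.0128), the newer quasi-likelihood form (FDR = 0.0361) and the fit without the filter (FDR = 0.0384) called Krt80. With the replicate block, 5 of the 10 other fits called Krt80. None of the 6 fits that left out 1 library did (FDR = 0.0772 to 0.144, edgeR). Krt19, a type I keratin of simple and conjunctival epithelium, had the highest CPM of these other keratins, with means of 43.4 ± 1.08 CPM before and 44.8 ± 9.52 CPM after the 6 h (SD, n = 3). Its log2 difference was 0.05, or -0.28 under scaling by library size alone, and it was not a DEG under either. Krt7 was at 1.58 ± 0.22 CPM and 1.17 ± 0.55 CPM, Krt222 at 1.14 ± 0.44 CPM and 1.20 ± 1.13 CPM, and Krt90 at 0.486 ± 0.217 CPM and 0.451 ± 0.452 CPM (0 h first), and the time points overlapped for all 3. Krt78 was not tested and had 0, 2 and 0 counts at 0 h PCS and 6, 32 and 8 counts at 6 h PCS.

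**Figure D3:**
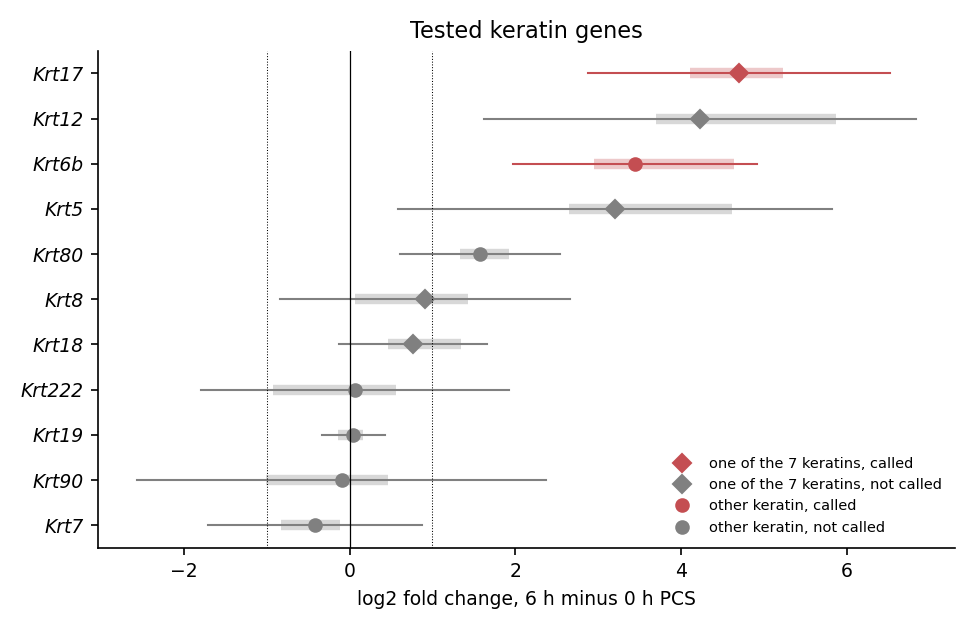
Log2 fold change of 6 h against 0 h PCS for each tested keratin, with a thin line for the 95% interval, a thick band for the range over the 6 fits that left out 1 library, diamonds for the 7 chosen keratins (5 tested), circles for other keratins, red for DEGs and dotted lines at a 2-fold change. Krt17 (4.69) and Krt6b (3.44) are the DEGs, the intervals of Krt12 and Krt5 are wide but lie above 0, and those of Krt18 and Krt8 cross 0.

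Keratin filaments are anchored at desmosomes, between cells, and at hemidesmosomes, on the basement membrane. Of 18 genes for such anchors, their linker proteins and regulators of keratin genes that had a symbol at hand, 7 were upregulated, none was downregulated and 11 were not DEGs. Their median log2 fold change was 0.85, against 0.19 for the tested genes with a symbol and -0.003 for all tested genes, and 11.6% of the tested genes with a symbol were upregulated, so named genes lean toward changed ones. Col17a1 and Pkp1, with 3 counts and none in their lowest 0 h library, passed the filter through 6 h PCS, and nothing was read from the count or the median. The largest change was that of Dsp, desmoplakin, which ties keratin to desmosomes. Dsp was at 2.67, 1.35 and 3.32 CPM in the 0 h libraries and at 26.8, 35.0 and 21.5 CPM in the 6 h libraries, with no overlap (log2 fold change 3.51, SE 0.34, FDR = 0.000411, edgeR quasi-likelihood test). Col17a1, a collagen of hemidesmosomes, was at 0.817, 0.109 and 0.475 CPM and then at 1.95, 7.51 and 4.10 CPM (log2 fold change 3.28, FDR = 0.0240, edgeR). Without 0 h replicate 3 or 6 h replicate 2, Col17a1 was no longer a DEG, with a highest FDR of 0.110 (edgeR).

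Sfn, the 14-3-3 protein of stratified epithelium that is known to bind KRT17, rose from 7.35 ± 1.18 CPM to 35.6 ± 5.47 CPM (SD, n = 3; log2 fold change 2.28). The other DEGs of this list were the transcription factors Klf4 (log2 fold change 3.04), Fosl1 (2.60) and Stat3 (1.26), and Dst (1.11), the linker protein dystonin. Fosl1 lost its call in 3 of the 6 fits that left out 1 library, namely 0 h replicate 3 and replicates 2 and 3 of 6 h PCS, and in the fit without the filter (FDR = 0.0976, edgeR). Dst lost it without 0 h replicate 1 or 6 h replicate 1, and both Dst and Stat3 lost it under scaling by library size alone. Plec, plectin, had the highest CPM of the list, at 2060 ± 377 CPM and 3868 ± 1005 CPM (SD, n = 3), with a log2 difference of 0.91 that was below the fold limit (FDR = 0.0321, edgeR). The desmosome genes Pkp2, Pkp4, Dsg1a, Dsg2 and Dsc2 and the hemidesmosome gene Itgb4 overlapped between the time points. Pkp1 and Perp, also of desmosomes, did not overlap and were not DEGs (FDR = 0.131 and 0.0796, edgeR).

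Of 7 intermediate filament genes outside the keratins with a symbol at hand, 3 were upregulated and none was downregulated. Beside this, 11.6% of the tested genes with a symbol were upregulated. The list held 15 genes, and vimentin was not among the 7. Lmna, which encodes lamin A/C of the nuclear lamina, rose from 109 ± 32.4 CPM to 815 ± 213 CPM (log2 fold change 2.91), Nes, nestin, from 97.4 ± 27.5 CPM to 271 ± 100.8 CPM (1.48) and Nefm, a neurofilament subunit, from 14.4 ± 4.61 CPM to 30.0 ± 1.59 CPM (1.06; SD, n = 3 for each). Nes and Nefm were not DEGs under scaling by library size alone, and each lost its call in 4 of the 6 fits that left out 1 library. Gfap, Synm, Ina and Nefl overlapped between the time points. Of 3 barrier and alarm genes with a symbol at hand, Sprr1a was upregulated beside Krt6b, already counted above, and this number is too small to set against the 11.6% of genes with a symbol. Sprr1a, a cornified envelope protein, was at 1.94, 0.729 and 1.51 CPM in the 0 h libraries and at 7.45, 7.60 and 6.26 CPM in the 6 h libraries, the library order of Krt12, with a log2 fold change of 2.35 (FDR = 0.00785, edgeR). Lcn2, lipocalin 2, was at 18.2 ± 9.88 CPM and 67.4 ± 36.7 CPM (SD, n = 3) and was not a DEG (FDR = 0.105, edgeR), although DESeq2 (FDR = 8.15e-05), the exact test of edgeR (FDR = 0.00855) and the fit without robust estimation (FDR = 0.0357) called it.

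Genes of the corneal epithelium other than keratins were set beside the surface keratins. Of 10 with a symbol at hand, 6 were upregulated, 1 was downregulated and 3 were not DEGs, and the median log2 fold change was 1.87, beside 11.6% upregulated and a median of 0.19 among all tested genes with a symbol. Slurp1, Lypd2 and Cldn4, with 10 counts or fewer in each 0 h library, and Gjb6, with none at 6 h PCS, passed the filter through 1 time point, so nothing was read from the count or the median. Those upregulated were Slurp1 (log2 fold change 4.34), Cldn4 (3.79), Lypd2 (3.47), Mal (2.44), Sfn (2.28) and Elf3 (1.45). Sfn, Dsg1a and Dsc2 were also among the 18 genes of keratin anchors, linkers and regulators, so Sfn was already counted there. Slurp1, which encodes a secreted protein abundant in corneal epithelium, was at 0.430, 0 and 0 CPM in the 0 h libraries and at 2.28, 2.56 and 3.98 CPM in the 6 h libraries. Its log2 fold change ran from 3.73 to 8.94 with 1 library left out. The highest value came without 0 h replicate 1, the one 0 h library with counts, so the size of the change is uncertain. Slurp1 was called in 1 of the 6 fits that left out 1 library, Cldn4 in none, and Lypd2 and Elf3 in 3 each. Lypd2 and Mal had the library order of Krt12 at both time points. Gjb6 had 12, 40 and 12 counts at 0 h PCS and none at 6 h PCS, at least 4.82-fold lower against 3 counts per library (3.001-fold without 0 h replicate 2), and was a DEG in none of the fits that left out 1 library.

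Aldh3a1, the abundant corneal aldehyde dehydrogenase, was not a DEG in any fit and did not follow Krt12. It was at 480, 347 and 481 CPM in the 0 h libraries and at 231, 347 and 261 CPM in the 6 h libraries, with a log2 difference of -0.64 (FDR = 0.0725, edgeR quasi-likelihood test with Benjamini-Hochberg adjustment). Aldh3a1 was at 347 CPM both in 0 h replicate 2, with the least Krt12 (0.437 CPM), and in 6 h replicate 2, with the most (65.8 CPM). It made up most of the summed level of the list, which ran from 380 to 521 CPM at 0 h PCS and from 305 to 435 CPM at 6 h PCS. The time points overlapped in that sum, while Krt12 alone was at 0.437 to 7.01 CPM and then at 44.2 to 65.8 CPM. In such bulk libraries, fewer cells of a type and less RNA per cell cannot be told apart. The part of corneal tissue in the keratin values was not tested.

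Some markers of other tissues near the lens were also higher at 6 h PCS. All 5 erythrocyte genes were upregulated, beside 11.6% of the tested genes with a symbol. Hbb-bt passed the filter through 6 h PCS, so no more was read from this count. The 5 genes had log2 fold changes from 2.83 (Hba-a2) to 3.34 (Hbb-bt), and their sum was 7.94 to 19.5 CPM in the 0 h libraries and 73.5 to 132.7 CPM in the 6 h libraries. Without 0 h replicate 3 or without 6 h replicate 3 the number called was 3, and in the test against a 2-fold change it was 2. Hbb-bt lost its call in 4 of the 6 fits that left out 1 library. Their sum was highest in replicate 1 at 0 h PCS and in replicate 2 at 6 h PCS, as were Krt5, Krt12 and Krt6b, but the other libraries came in another order, and Hba-a1 alone of the 5 had the full order of Krt12. At 6 h PCS, replicate 2 was also the highest library for Krt14, Krt16, Krt17 and Krt18, and Krt8 was the exception. Of the 3 conjunctival genes at hand, the mucin gene Muc5ac was upregulated, from 0.379 ± 0.251 CPM to 9.38 ± 2.67 CPM (SD, n = 3; log2 fold change 4.63, FDR = 0.000809, edgeR), while Krt19 and Krt7 were not DEGs. Muc5ac passed the filter through 6 h PCS, with 15, 4 and 8 counts at 0 h PCS, and 1 of 3 is too few to set against the 11.6%. Of 6 leukocyte genes, Cd68 (log2 fold change 2.55) was upregulated, a share near the 11.6% of genes with a symbol, and its call was lost when 0 h replicate 1 or 6 h replicate 3 was left out. Ptprc reached the level of the filter in all 3 libraries only at 6 h PCS, Adgre1 only at 0 h PCS and Itgam at neither, so nothing was read from this count. The leukocyte sum was 13.5 to 22.6 CPM and then 16.8 to 32.3 CPM.

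None of the 4 stromal, 3 corneal endothelial, 4 pigment cell or 4 vascular endothelial genes at hand was a DEG in the quasi-likelihood test of edgeR. Of these 15 genes, too few to read against the 13.7% of DEGs among genes with a symbol, 5 (Dcn, Col5a1, Car2, Pecam1 and Cdh5) had an unadjusted p below 0.05, and 2, both vascular, were DEGs by DESeq2 and by the exact test of edgeR. Car2 passed the FDR limit (FDR = 0.0182, edgeR), and its log2 difference of 0.87 was below the fold limit. The summed pigment cell level spanned 51.4 to 208.8 CPM at 0 h PCS and 77.4 to 1965 CPM at 6 h PCS, and the summed vascular level 4.10 to 26.3 CPM and 19.97 to 36.9 CPM, with overlap in both. Of the 8 lens epithelium genes, Epha2 was upregulated (log2 fold change 1.21) and none was downregulated, near the 13.7% of tested genes with a symbol that were DEGs. Their median was -0.52, against 0.19 for those genes, and Pitx3 (-0.86), Prox1 (-0.75), Sox2 (-0.70) and Mab21l1 (-0.53) were lower at 6 h PCS without overlap, as were 15.3% of all tested genes, with FDRs from 0.00777 to 0.0316 (edgeR) and changes below the fold limit. The parts of erythrocytes, conjunctiva and the other tissues in the keratin values were not tested.

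**Figure D4:**
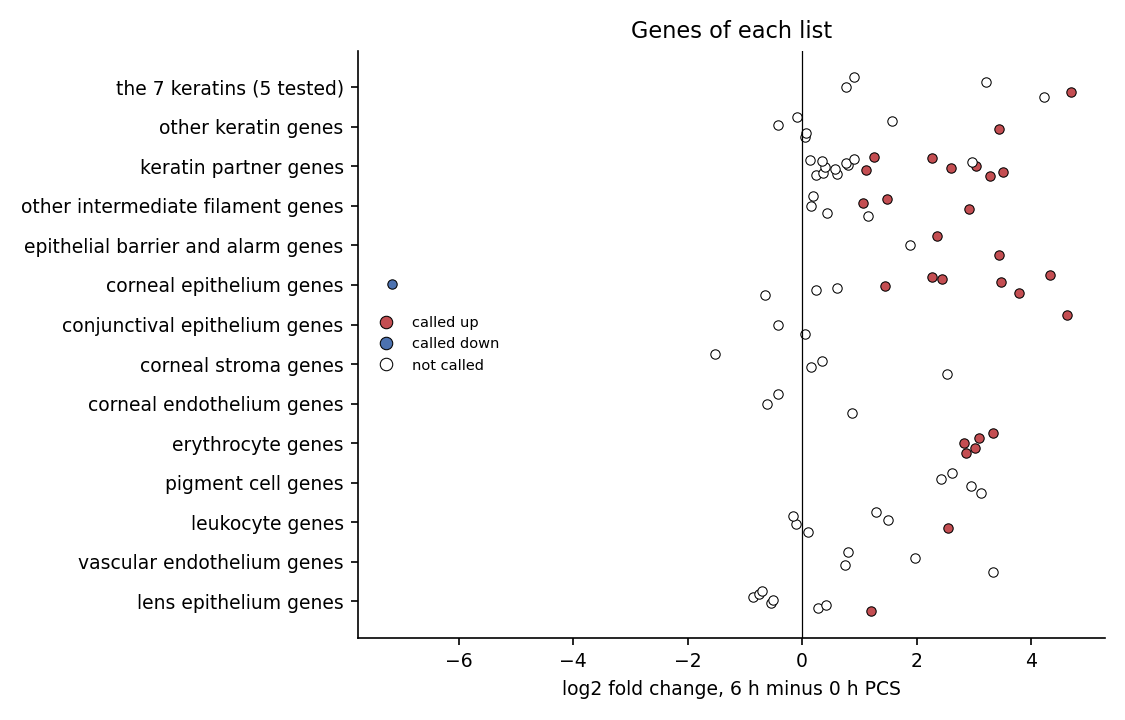
Log2 fold change of 6 h against 0 h PCS for each tested gene of the 7 keratins and of the lists set beside them, with red for upregulated, blue for downregulated and white for genes that were not DEGs. The erythrocyte genes are all upregulated between 2.83 and 3.34, the corneal epithelium genes run from Gjb6 far below 0 to Slurp1 at 4.34, and the lens epithelium genes lie between -0.86 and 1.21.

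The genes most like each keratin across the libraries were sought among 6373 tested genes with a symbol, by Pearson's r of log2 CPM over the 6 libraries. For genes whose time points are far apart, such an r mostly reflects that gap, and it is given as a description. Krt12 was most like Krt6b (r = 0.9997), Krt80 (0.996) and the predicted gene Gm29292 (0.995), and Krt5 was most like Krt12 and Krt6b (0.986 each) and the predicted gene Gm42679 (0.983). Krt17 was most like Bicd2 (0.993), Samd9l (0.992) and Pde3b (0.989), none of them a keratin. Krt8 was most like Map1lc3b (0.990), the desmosomal cadherin gene Dsg1b (0.986) and Lgals3bp (0.977). Krt18 was most like Col2a1 (0.985), Atxn1 (0.984) and Podxl2 (0.984).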

How the data were processed

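Per the labels and the methods of the study, the authors prepared ribodepleted stranded libraries, sequenced paired reads, aligned them to GRCm38.p6 with HISAT2 and counted them with HTSeq. The deposited values are raw counts per gene, whole numbers, with 5 summary lines per library that were left out. The strand setting is not given in the sources used here. Between 58.8% and 66.4% of read pairs were not assigned to a gene, ambiguous pairs and pairs without a unique position included.

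The counts were fitted with edgeR 4.0.16 (limma 3.58.1, R 4.3.3) on all 6 libraries, with TMM normalization, its filter on low counts, robust estimates and the quasi-likelihood test in its earlier form. The code was tested on simulated counts. DESeq2 1.42.0, the exact test of edgeR, other scalings and filters, a test against a 2-fold change, a replicate block and the omission of each library were alternatives. P-values measure the spread between pools of capsules.

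Symbols came from the annotation columns of the study's supplementary tables, for 7026 counted and 6374 tested genes and 4 of the 7 keratins. The other keratins were found by Ensembl identifier. All 7 keratins were named, and from each list the DEGs and the genes of highest level, with the 3 genes most like each tested keratin. Krt7, Krt222, Krt90, Krt78 and genes named as overlapping were added for completeness after their values were seen. The members and lists were chosen with earlier results of these data known. Binomial and count-ratio intervals and lower limits cover counting error only, while intervals of log2 fold changes come from the edgeR fit. No sequence is shown, since no genome was used here.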

Additional observations from a re-analysis of the deposited data

How the results depend on the processing

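Krt17 was called in every fit, and Krt8 and Krt18 in none. Against the 1 keratin called, 3 were called by DESeq2, 3 by the exact test of edgeR and 3 without robust estimation (Krt5, Krt12 and Krt17), 2 in the newer quasi-likelihood form (Krt12 and Krt17), 2 without the filter (Krt16 and Krt17), and 1 to 3 with 1 library left out. All genes called numbered 900, with 1331 by DESeq2, 1199 by library size alone (47.7% of them up, against 84.7%), 221 in the test against a 2-fold change and 553 to 877 with 1 library left out, lowest without 0 h replicate 1. Corneal epithelium genes called numbered 7, 1 in the test against a 2-fold change and 2 to 4 with 1 library left out. The cause of these changes was not tested.

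Same-numbered libraries correlated at 0.0082, 0.205 and 0.135 for replicates 1, 2 and 3 in their deviations from the group means. The crossed values were -0.149 for 0 h replicate 2 with 6 h replicate 3, and -0.178 for 0 h replicate 3 with 6 h replicate 2. Whether the numbers mark pools of the same mice was not tested. The main fit used no block because the labels do not tie pools to animals. 0 h replicate 1 correlated about equally with 6 h replicate 3 (0.013) and with 6 h replicate 1. With the replicate block 1050 genes were called, and Krt17 (log2 fold change 4.70) was the single one of the 7 keratins called. Of the other named genes tried, the block gained Krt80 (FDR = 0.0474) and Lcn2 (0.000151) and lost Fosl1 (0.170) and Gjb6 (0.0561; edgeR).

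Signs turned only in genes that were not called. By library size alone, the log2 difference was -0.085 for Dsc2, -0.28 for Krt19 and -0.28 for Krt222. Krt222 was at -0.013 in the newer quasi-likelihood form, -0.39 with the replicate block and -0.93 to 0.56 with 1 library left out. With 1 library left out Krt19 ran from -0.13 to 0.16, Krt90 from -1.01 to 0.46, and Dsg1a from -0.54 (without 6 h replicate 3) to 1.02. At this depth 1 count was worth 0.0364 to 0.0671 CPM, which limits what can be said of Krt14 and Krt16.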
